A study of Mus musculus with 2 samples.

Results

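The noncoding transcripts described here are Rn45s, the precursor of the ribosomal RNAs, Malat1 and Neat1, which stay in the nucleus, and 7 transcripts whose introns hold small nucleolar RNAs (snoRNAs), namely Gas5, Snhg1, Snhg3, Snhg5, Snhg6, Snhg8 and Snhg12. They were chosen by gene symbol, and all 10 had a row among the 23282 rows of the deposited tables. The samples were wild-type (WT) T lymphocytes of the mouse, naïve CD4+ T cells taken from spleens of female C57BL/6 mice aged 7 to 10 weeks and cultured for 1 day with antibodies to CD3 and CD28, TGF-β1 and IL-2, and with antibodies that block IFN-γ and IL-4, so that they begin to become induced regulatory T (iTreg) cells. The control culture received DMSO, the vehicle, and the other received 10 μM Tubastatin A (TSA in the text and plots), an inhibitor of the deacetylase HDAC6. Each condition was 1 library, so that no difference given below has a replicate check, and the comparison is of these libraries and not of the conditions. The labels and the methods name a QuantSeq kit for both, though the catalogue number in the labels could not be checked against that name. In the QuantSeq method for the ends of mRNA a primer of T residues anneals to the poly(A) tail, or to another run of A residues, and 1 read is taken from near that place whatever the length of the transcript.

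RNA polymerase I makes the long ribosomal RNA precursor in the nucleolus, where it is cut and modified into the RNAs of both ribosomal subunits. The modifications are guided by snoRNAs, most of which in mammals are cut from the introns of host genes. The exons of noncoding hosts such as Gas5 are spliced and exported and are then degraded, in large part by nonsense-mediated decay, and many of these hosts begin with a C and a run of pyrimidines, as the genes of ribosomal proteins do. Malat1 gathers in nuclear speckles, where splicing factors are stored, and Neat1 is the scaffold of paraspeckles, nuclear bodies that grow when cells are stressed.

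The ends of the transcripts are shown first, because a read of this method starts from a run of A residues. Neat1 has a short form with an ordinary polyadenylation signal and a long form that ends in an A-rich tract written in the genome, and the deposited row does not separate them. In the lines below, taken from GENCODE M21 on GRCm38 (mm10), capitals mark the signal AATAAA or ATTAAA, the A residues of the tract in Neat1-201, or the run of 12 A residues in Malat1-201, where the rest of its tract stays in lower case.
Neat1-202, last 60 of 3004 bases, chr19:5842307-5842366, minus strand: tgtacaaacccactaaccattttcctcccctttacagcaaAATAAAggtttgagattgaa
Neat1-201, last 60 of 20771 bases, chr19:5824708-5824767, minus strand: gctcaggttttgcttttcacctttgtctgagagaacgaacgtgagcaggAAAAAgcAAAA
Malat1-201, bases 6650 to 6709 of 6983, chr19:5795964-5796023, minus strand: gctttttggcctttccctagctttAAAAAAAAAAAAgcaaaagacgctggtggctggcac
Gas5-218, last 60 of 2556 bases, chr1:161038480-161038539, plus strand: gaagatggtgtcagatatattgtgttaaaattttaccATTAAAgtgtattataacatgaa
Snhg5-202, last 60 of 781 bases, chr9:88521050-88521109, minus strand: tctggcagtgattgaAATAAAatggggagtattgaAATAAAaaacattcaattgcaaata
Snhg6-203, last 60 of 473 bases, chr1:9941959-9942018, minus strand: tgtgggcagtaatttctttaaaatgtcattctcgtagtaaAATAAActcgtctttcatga

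The signal was searched on the transcript strand in the last 50 bases of the transcript that reaches farthest downstream. It was present for 7 of the 9 genes with a position, which is 77.8%, beside 77.3% of the 11685 tested rows that could be matched to GENCODE. A run of 10 A residues within that transcript was found in Malat1 and Snhg12, and in 17.6% of the matched rows. The genes themselves are compact, spanning 853 bases for Snhg8 on chromosome 3 to 20771 bases for Neat1 on chromosome 19, and Malat1, Neat1 and Snhg1 lie on the same chromosome. Rn45s had no entry in the annotation used and is given without a position or a sequence.

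The starts of the 7 hosts are shown for the pyrimidine run named above. Each line gives the transcript whose start is shared by the most transcripts among those that have the run. Snhg1 has none with the run, so its line was chosen among its transcripts that begin with a C. The start shown for Snhg1 is shared by 2 of its 18 transcripts. Capitals mark the unbroken run of C and T from the first base.
Gas5-205, chr1:161035166-161035190, plus strand: CTTTCggagctgtgcggcattctga
Snhg1-203, chr19:8723487-8723511, plus strand: CTCatttttccttgttcggggtaag
Snhg3-203, chr4:132353609-132353633, minus strand: CTCTCTaggcgtcgctctcttggtg
Snhg5-204, chr9:88522864-88522888, minus strand: CTTTTacgacggagcctaagatatt
Snhg6-203, chr1:9944094-9944118, minus strand: CTTTCTCggcagcgccgtagagcgc
Snhg8-201, chr3:123508380-123508404, minus strand: CCCTCgcgcgcaggctcttgggaga
Snhg12-208, chr4:132308676-132308700, plus strand: CCTTTCTCgcttcatccgcggtccc

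A C followed by at least 4 pyrimidines opened at least 1 annotated transcript of 6 of the 7 hosts, all but Snhg1, beside 10.6% of the 11685 matched rows. Counted by transcript, 12 of the 72 host transcripts (16.7%) had such a start, beside 2.10% of the 69256 transcripts of the matched rows. In RefSeq on GRCm38, 6 of the 7 hosts had an entry, with 7 starts between them. It was found at 2 of these 7 starts, and at 2.51% of all 32851 starts. These are matches of letters at annotated starts, which can differ from the starts used in T cells.

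The libraries held 10845868 reads on rows in the control and 10432287 in the TSA library, recovered from the steps of the deposited values. Of the 23282 rows, 12164 had at least 10 reads in at least 1 library and were compared. Markers of CD4+ T cells were present for 9 of 9 genes, with 28360 reads in the control and 30179 in the TSA library. The summed markers of other cells came to 80 and 87 reads for CD8+ T cells, 12 and 15 for B cells with Pax5 at 0, 32 and 25 for myeloid cells, 30 and 43 for NK cells with Klrb1c at 0, and 47 and 75 for erythroid cells. The part of these small differences in the results below was not tested, and in bulk RNA fewer cells of a type and less RNA per cell cannot be told apart.

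Rn45s was the row with the most reads in both libraries. It had 946211 reads in the control and 1004477 in the TSA library, or 8.72% (95% exact binomial interval, 8.71 to 8.74) and 9.63% (9.61 to 9.65) of all reads. The second row, Actb, which encodes cytoplasmic actin, held 1.24% and 1.17%. The TSA library thus gave 0.904 percentage points more of its reads to the Rn45s row, a gap larger than the counting error. The deposited log2 values of Rn45s, 19.86 and 19.93, differed by 0.07, a ratio of 1.05 (1.048 to 1.054). A share and a deposited value can move by different amounts, because the deposited values were scaled by the authors and the share is taken over all reads. All intervals and floors cover counting error only, since copies made by PCR were not told apart from separate molecules. Ribosomal RNA precursors carry no regular poly(A) tail, so that these reads are a level of what the primer caught rather than of the precursor as a whole. Reads of the ribosomal RNAs cut from the precursor may be counted in the Rn45s row and cannot be told apart there.

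The sets of protein genes that serve the precursor were mostly lower. Of 15 genes of the RNA polymerase I machinery, none passed 2-fold, 13 were lower and 2 higher in the TSA library, with a median log2 difference of -0.28. Taf1d, a part of the factor that selects the ribosomal RNA promoter, had 4385 reads in the control and 3408 in the TSA library. Among 19 proteins that build snoRNA particles or travel with them, 16 were lower and 3 higher, none past 2-fold, with a median of -0.29. Nop58, a core protein of C/D box particles, had 9924 and 6409 reads, a ratio of 0.639 (0.620 to 0.660). Nolc1, a chaperone of these particles in the nucleolus, had 6245 and 3888 reads, whereas Nop10, a core protein of H/ACA box particles, had 4613 and 4965. Rn45s and most of these genes therefore differed in opposite directions between the libraries, while the median over all tested rows was 0.02 and that over the 3962 rows whose mean normalized count reached 500 was -0.11, with 65.6% of those rows lower. Of those 3962 rows 0.227% were past 2-fold and higher and 0.707% past 2-fold and lower. Short lists at that level, here and below, would therefore mostly hold none past 2-fold.

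**Figure D1:**
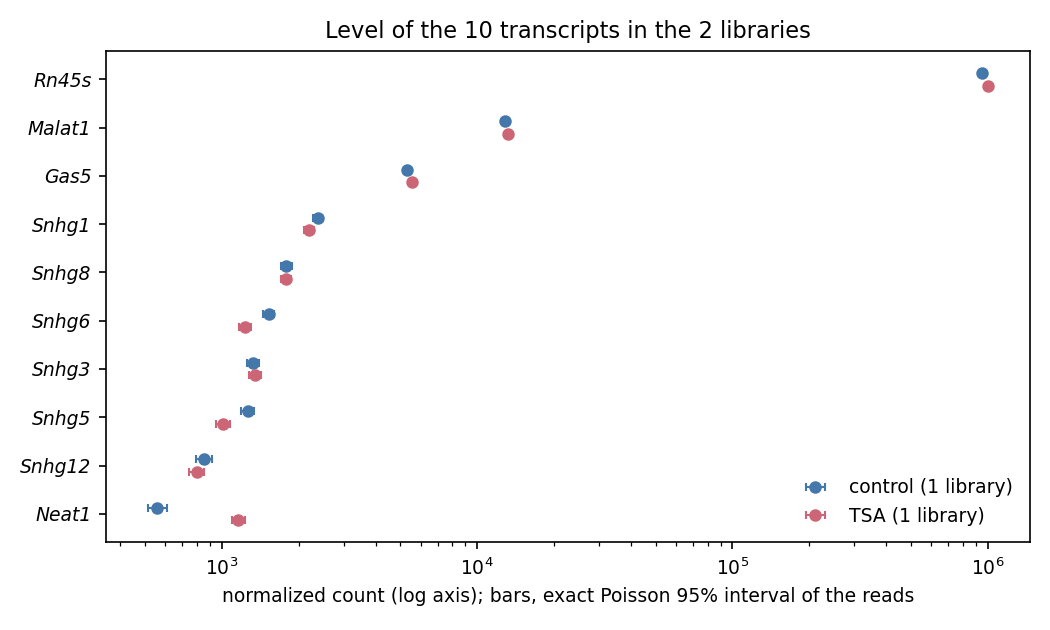
Normalized count of each of the 10 transcripts (horizontal log axis) in the control library (blue) and the TSA library (red), 1 library each, with the exact Poisson 95% interval of the reads as bars. Rn45s lies far to the right of the others, with 946211 and 1004477 reads, and Neat1 is the one transcript whose points stand far apart, with 556 and 1163 reads.

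Neat1, the paraspeckle scaffold, was the one transcript of the 10 that passed 2-fold. It had 556 reads in the control (exact Poisson interval, 511 to 604) and 1163 in the TSA library (1097 to 1232), so that the intervals did not overlap. Its share was 0.00513% and 0.0111% of all reads, and its place among all rows by reads moved from 3682 to 1801. The deposited log2 values were 9.13 and 10.18, a difference of 1.05 or a ratio of 2.07 (1.87 to 2.30), the lower bound of which lies under 2-fold. Past 2-fold and higher in the TSA library were 11.5% of the 12164 tested rows, and 3.15% were past 2-fold and lower, 14.7% together. Among the 3962 rows with a mean of at least 500, 9 rows or 0.227% were past 2-fold and higher, Neat1 among them, and 28 rows or 0.707% were past 2-fold and lower. Of 8188 rows with a mean of at least 100, 107 had a higher log2 difference, TSA minus control, than Neat1.

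Malat1, which lies next to Neat1 on chromosome 19, had 12754 reads in the control and 13243 in the TSA library. These were 0.118% and 0.127% of the libraries. Its deposited values were 13.65 and 13.69, a ratio of 1.03 (1.003 to 1.054), so that on the deposited scale Malat1 was higher by little more than the counting error. By library totals its log2 difference was 0.11, against 0.04 as deposited, so that its size depended on the scaling. The neighbours thus differed in the size of their change, since the interval of Malat1 lies wholly under that of Neat1.

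The proteins of the bodies that these RNAs belong to did not follow Neat1. Of 15 paraspeckle proteins, 13 were lower and 2 higher, none past 2-fold, with a median log2 difference of -0.22, beside 65.6% lower and a median of -0.11 among rows whose mean reached 500. Sfpq, which binds Neat1 along its length, had 6925 reads in the control and 5684 in the TSA library. Of 11 nuclear speckle proteins, all 11 were lower and none passed 2-fold, with a median of -0.31. Srrm2, a scaffold of speckles, had 8603 and 6195 reads, a ratio of 0.713 (0.690 to 0.737). For 10 of those 11 proteins the interval lay below no change, as it did for 48.5% of the rows whose mean reached 500.

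Rpph1, the RNA of RNase P, which cuts the ends of Malat1 and of the long form of Neat1 at the A-rich tracts shown above, had 2338 reads in the control and 1593 in the TSA library, a ratio of 0.675 (0.633 to 0.719). Of 19 structural RNAs listed, 7 had a row and 4 were tested, and those other than Rpph1 were scarce. Rmrp, the RNA of the related enzyme that cuts the ribosomal precursor, had 11 and 10 reads, Vaultrc5 of the vault particle 15 and 21, and Terc of telomerase 4 and 15. Of these 4 rows, 2 were higher and 2 lower, and Terc alone passed 2-fold, from few reads. Of all tested rows 11.5% were past 2-fold and higher in the TSA library.

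A list of 16 further long noncoding RNAs, most of them known for work in the nucleus, was read beside these. Of them 15 had a row and 12 had enough reads to be tested. Of the 12 tested, 5 were higher and 7 lower, none past 2-fold, with a median log2 difference of -0.04 as deposited and 0.035 with the reads scaled by library totals, or -0.21 over the rows with a mean of at least 50. By their intervals 5 of the 12 were lower and 1 higher, beside 28% of all tested rows lower and 28.1% higher. Kcnq1ot1, which silences genes of an imprinted cluster, had 4286 reads in the control and 2754 in the TSA library, a ratio of 0.636 (0.606 to 0.668). Xist, which coats the inactive X chromosome, had 4367 and 4219 reads, and Tsix, its antisense partner, 3632 and 3650. Whether the counting used the strand is not given in the sources used here, so that reads of Xist and Tsix cannot be told apart. Norad, listed as 2900097C17Rik, which holds Pumilio proteins and is known to act mainly in the cytoplasm, had 861 and 1053 reads, a ratio of 1.21 (1.11 to 1.33).

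**Figure D2:**
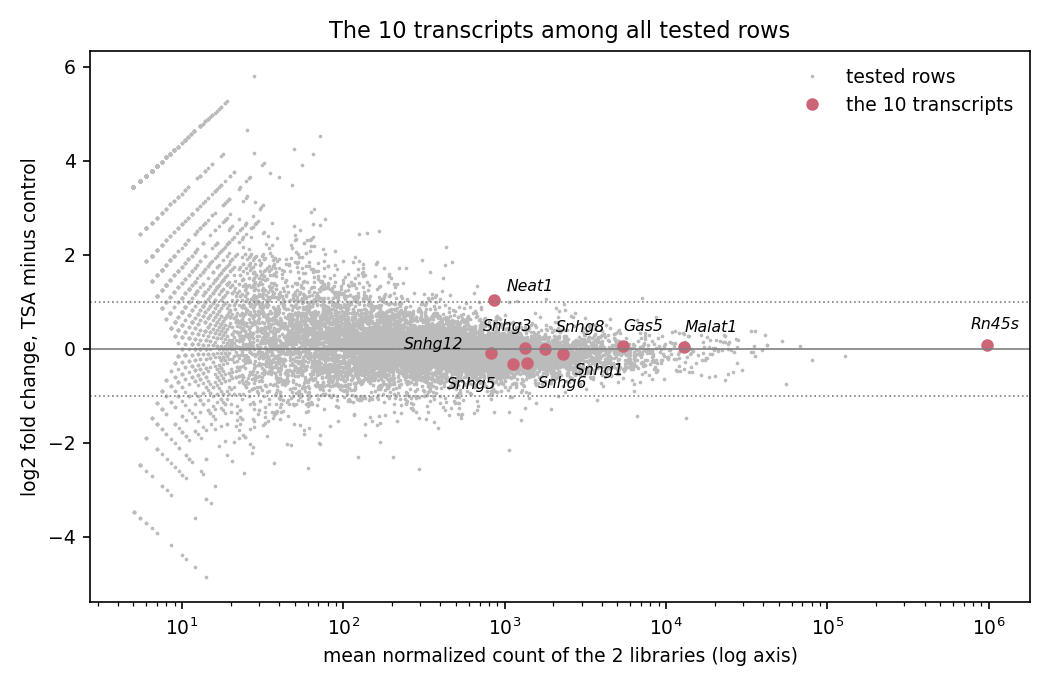
Log2 difference, TSA minus control (vertical axis), against the mean normalized count of the 2 libraries (horizontal log axis) for the 12164 tested rows (grey) and the 10 transcripts (red), with dotted lines at 2-fold. The grey rows widen to the left, where counts are low, and Neat1 stands at 1.05 above nearly all rows of its level, while the other 9 lie between -0.32 and 0.07.

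The 7 snoRNA hosts held together 14364 reads in the control and 13987 in the TSA library, 0.132% (0.130 to 0.135) and 0.134% (0.132 to 0.136) of all reads. Gas5, the host of several C/D box snoRNAs and a transcript that builds up in T cells that stop growing, had the most reads of them. It had 5284 in the control and 5594 in the TSA library, deposited as 12.38 and 12.44, a ratio of 1.05 (1.01 to 1.09). Gas5 was therefore slightly higher, and it was the only host whose interval lay above no change.

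Snhg5 and Snhg6 were the hosts with the largest differences, and both were lower. Snhg5, the host of the Snord50 RNAs, had 1254 reads in the control and 1012 in the TSA library, with deposited values of 10.30 and 9.98 and a ratio of 0.799 (0.735 to 0.869). Snhg6, the host of Snord87, had 1518 and 1235 reads, with deposited values of 10.58 and 10.26 and a ratio of 0.806 (0.747 to 0.869). The intervals of the ratio of both lay below no change, and neither reached 2-fold. Snhg1, a host of many C/D box RNAs, had 2366 and 2206 reads, a ratio of 0.923 (0.871 to 0.979).

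The remaining hosts differed by no more than their counting error. Snhg3, the host of Snora73a and Snora73b, had 1316 reads in the control and 1351 in the TSA library, with a ratio of 1.02 (0.942 to 1.10). Snhg8, which holds Snora24, had 1779 and 1788 reads, with a ratio of 0.995 (0.931 to 1.06). Snhg12, which holds 4 snoRNAs, had 847 and 801 reads, with a ratio of 0.936 (0.849 to 1.03). These intervals reach from 0.849 for Snhg12 to 1.10 for Snhg3. They leave room for a difference either way and do not show that the levels were equal.

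Counting error alone thus left 4 of the 10 transcripts higher (Rn45s, Malat1, Neat1 and Gas5) and 3 lower (Snhg1, Snhg5 and Snhg6), beside 28.1% of all tested rows higher and 28% lower by the same rule. Among rows with a mean of at least 500, the level of all 10, these shares were 20.8% and 48.5%. The median of the 10 was 0.01, and 5 were higher and 5 lower, while by library totals the median was 0.079, and 6 were higher and 4 lower. In the control the order by reads was Rn45s, Malat1, Gas5, Snhg1, Snhg8, Snhg6, Snhg3, Snhg5, Snhg12 and Neat1, in which the counting intervals of Snhg3 and Snhg5 overlapped, as neighbours. In the TSA library Snhg3 came before Snhg6, and Neat1 stood between Snhg6 and Snhg5. There the intervals of Snhg3 and Snhg6 overlapped, as did those of Snhg6 and Neat1. These are orders of reads caught and not of levels per length.

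The direction of small differences depended on the scaling. With the deposited scaling 5 of the 7 hosts were lower, and with the reads scaled by the library total 4 were, Snhg8 then being higher by 0.06 on the log2 scale. The ratio of the 7 hosts together was 0.964 (0.942 to 0.987) as deposited, 1.01 by library totals and 1.02 by totals without Rn45s, so that their sum has no settled direction. The interval of Snhg1 also lay below no change only with the deposited scaling and with median-of-ratios factors. Neat1, Rn45s, Malat1 and Gas5 were higher, and Snhg5 and Snhg6 lower, by their intervals under all 5 scalings.

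**Figure D3:**
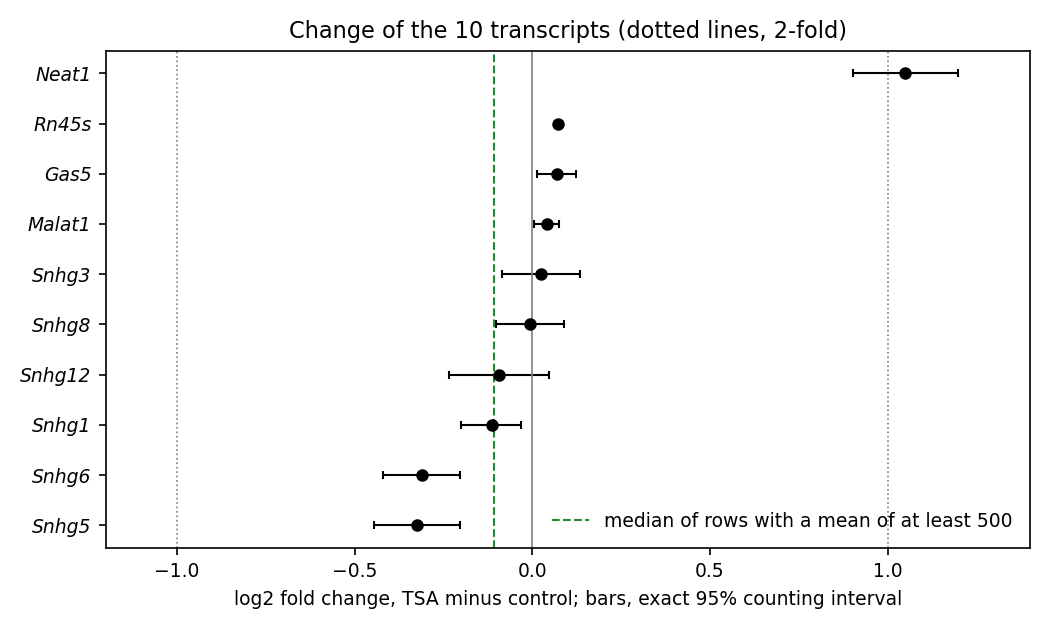
Log2 difference, TSA minus control, of the 10 transcripts with the exact 95% counting interval as bars, as deposited. Dotted lines mark 2-fold and the dashed green line the median of -0.11 of rows with a mean of at least 500. Neat1 stands at 1.05, Snhg5 and Snhg6 lie lowest at -0.32 and -0.31, and the bars of Snhg3, Snhg8 and Snhg12 cross 0.

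The make-up of the host reads does not depend on the scaling. Gas5 gave 36.8% (36.0 to 37.6) of the reads of the 7 hosts in the control and 40.0% (39.2 to 40.8) in the TSA library. Snhg5 gave 8.73% (8.27 to 9.20) and 7.24% (6.81 to 7.68), and Snhg6 gave 10.6% (10.1 to 11.1) and 8.83% (8.36 to 9.31). The intervals of these 3 hosts did not overlap between the libraries, and those of the other 4 did. The 7 shares add up to the whole, so that the rise of Gas5 and the falls of Snhg5 and Snhg6 are not separate results. By another rule, the interval of the ratio, 20.8% of rows whose mean reached 500 were higher and 48.5% lower. Without Gas5, the 6 Snhg transcripts together had 9080 and 8393 reads, 0.0837% and 0.0805% of all reads.

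**Figure D4:**
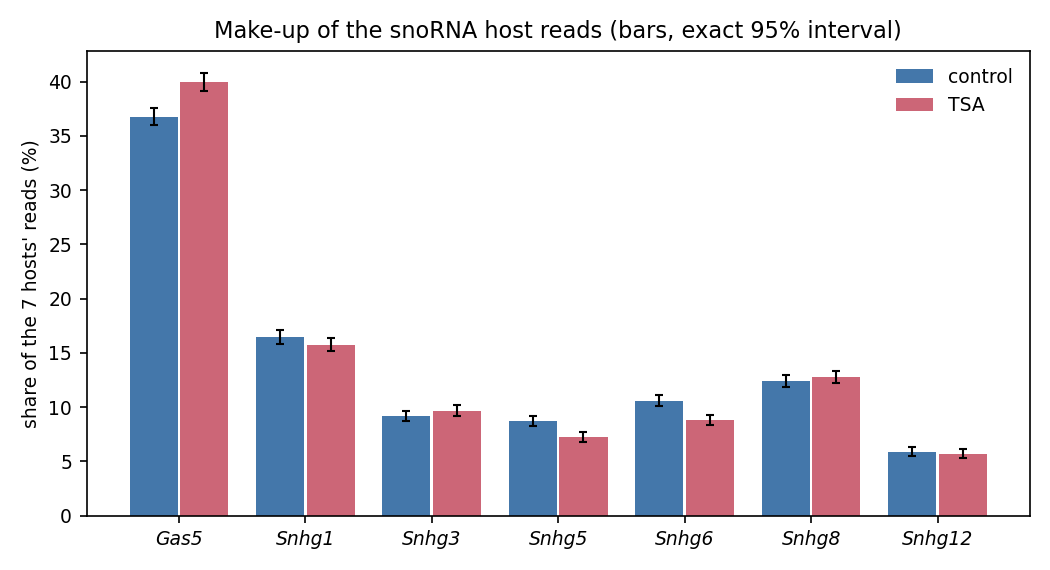
Share of the reads of the 7 snoRNA hosts that each host gave (vertical axis, percent) in the control library (blue) and the TSA library (red), with the exact binomial 95% interval. Gas5 takes 36.8% and 40.0%, Snhg6 10.6% and 8.83%, and Snhg5 8.73% and 7.24%, while the bars of the other 4 hosts overlap.

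Of 14 other noncoding hosts of snoRNAs listed, 12 had a row and 10 enough reads to be tested. Of these 10, 6 were lower and 4 higher, with a median log2 difference of -0.12 as deposited and -0.051 by library totals. By their intervals Zfas1, Epb41l4aos and Dancr were lower, and Snhg20 and Snhg11 were higher, beside 28% of all tested rows lower and 28.1% higher by the same rule. Snhg20 had 109 reads in the control and 171 in the TSA library, a ratio of 1.55 (1.21 to 1.99), and the scarce Snhg11, the one row past 2-fold (11.5% of all tested rows were past 2-fold and higher), had 3 and 19 reads, with an interval of the ratio from 1.85 to 33.1. Zfas1, listed as 1500012F01Rik, had 3476 and 2928 reads, a ratio of 0.834 (0.794 to 0.876). Dancr, the host of Snora26, had 1024 and 703 reads, a ratio of 0.680 (0.617 to 0.749), and Epb41l4aos had 1075 and 935. Snhg4 had 474 and 503 reads, with an interval of the ratio from 0.925 to 1.19.

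Of 35 protein-coding genes that host snoRNAs, 27 were lower and 8 higher, none past 2-fold, with a median of -0.13 as deposited and -0.059 by library totals. Among rows whose mean reached 500, as it did for all 35, 65.6% were lower and the median was -0.11. For 26 of the 35 the interval lay below no change, and for 5 above it, beside 48.5% and 20.8% of the rows whose mean reached 500. Ncl, which encodes nucleolin, a protein of the nucleolus that binds the ribosomal precursor, had 68641 reads in the control and 41562 in the TSA library. Its ratio was 0.600 (0.592 to 0.607), and its share fell from 0.633% to 0.398% of all reads. Rpl4, a protein of the large ribosomal subunit, had 30252 and 24661 reads, and Eef2, the elongation factor that moves the ribosome along, 34344 and 32995. Rack1, a protein of the small subunit that stands in the table as Gnb2l1, went the other way, with 23134 and 25834 reads.

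The factors of nonsense-mediated decay were lower too. Of 19, 18 were lower and 1 higher, none past 2-fold, with a median of -0.33, beside a median of -0.11 and 65.6% lower among rows whose mean reached 500. For 13 of the 19 the interval lay below no change, beside 28% of all tested rows and 48.5% of rows whose mean reached 500. Eif4a3, of the complex left at exon junctions, had 4283 reads in the control and 3950 in the TSA library, a ratio of 0.913 (0.874 to 0.954). Gas5 and the Snhg transcripts, as targets of this pathway in other cells, had no common direction beside it.

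The snoRNAs themselves had rows of their own, though a method that starts at poly(A) catches few of them. The 36 rows of H/ACA box RNAs (Snora) held 4597 reads in the control and 3154 in the TSA library, a ratio of 0.679 (0.649 to 0.711). Of the 31 tested, 24 were lower and 7 higher, 5 and 1 of them past 2-fold, with a median log2 difference of -0.47. Of all tested rows 48.6% were lower, 3.15% were past 2-fold and lower, and 11.5% past 2-fold and higher. The 76 rows of C/D box RNAs (Snord) held 1602 and 1164 reads, a ratio of 0.719 (0.667 to 0.776). Of the 24 tested, 16 were lower and 8 higher, 7 and 2 of them past 2-fold, with a median of -0.40. The RNAs of Cajal bodies (Scarna) held 167 and 154 reads, with 2 of 4 tested lower, and among the spliceosomal RNAs Rnu11 alone was tested, with 10 and 22 reads.

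Within the hosts described here, 8 snoRNA rows could be set against the host. Snora24, which lies in Snhg8 at chr3:123507937-123508066, had 86 reads in the control and 38 in the TSA library, or 4.83 and 2.13 for every 100 reads of its host. The ratio of these was 0.440 (0.290 to 0.655), whereas Snhg8 itself hardly differed. Snora44, in Snhg12 at chr4:132309941-132310069, had 390 and 271 reads, or 46.0 and 33.8 for every 100 reads of Snhg12, a ratio of 0.735 (0.609 to 0.886). These ratios within a library do not depend on the scaling. The other rows, Snora16a, Snora61 and Snord99 of Snhg12, Snord22 of Snhg1, Snord47 of Gas5 and Snord87 of Snhg6, had 11 to 78 reads in the control, and their intervals held no change. Gas5 spans 9 small RNA genes and Snhg1 8, and 1 of each had a row.

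Over all hosts that could be placed by annotation, 49 tested snoRNA rows lay in 43 host genes. Of the snoRNA rows 36 were lower in the TSA library, while the host was lower for 34 of the 49. Lower were 48.6% of all tested rows, and 65.6% of those whose mean reached 500. The median log2 difference was -0.44 for the snoRNA rows and -0.10 for their hosts, and 33 of 49 lay below their own host. Over all 49 pairs the median of snoRNA minus host was -0.27. Snora75 and its host Ncl were both lower, with 475 and 238 reads for the snoRNA. Snora26 had 826 and 523 reads and followed its host Dancr, with ratios of 0.627 and 0.680. Snord49b, in the host listed as 2410006H16Rik, had 362 and 163 reads, while its host had 2122 and 1913. Whether a read could be counted for both the snoRNA and the host is not given in the sources used here.

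**Figure D5:**
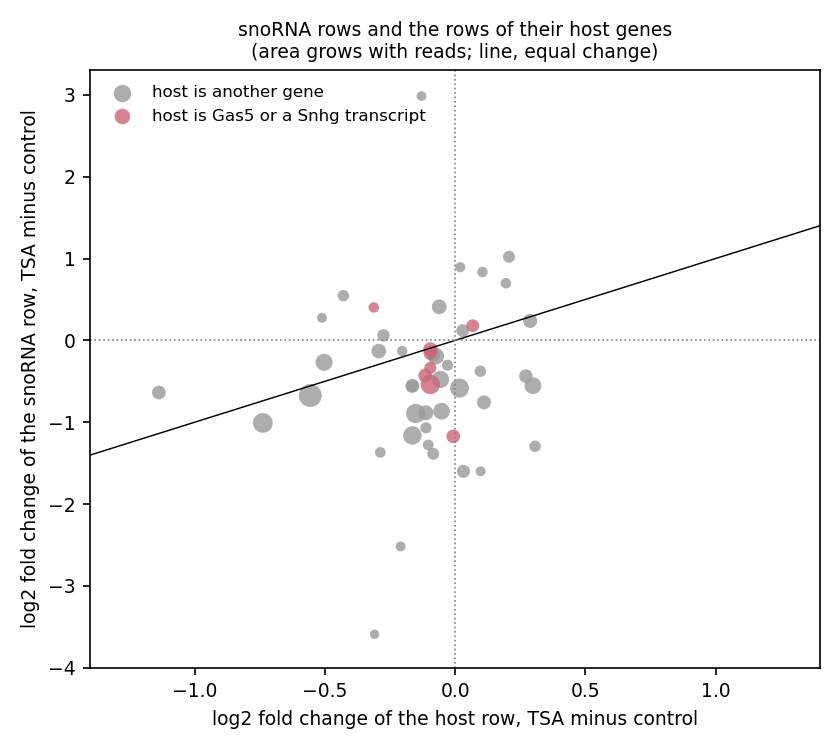
Log2 difference, TSA minus control, of 49 snoRNA rows (vertical axis) against that of the row of the gene they lie in (horizontal axis). Points grow with the reads of the snoRNA row, red points are the 8 rows inside Gas5, Snhg1, Snhg6, Snhg8 or Snhg12, and the line marks equal change. Of the 49 points 33 lie under the line, and 36 lie below 0 on the vertical axis.

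Genes that overlap the transcripts or start beside them were read for the same reason. Slc3a2, which encodes a chain of amino acid transporters and starts 106 bases from Snhg1 on the other strand, had 2917 reads in the control and 2046 in the TSA library, a ratio of 0.694 (0.656 to 0.735). That interval lies wholly below the interval of Snhg1. Rcc1, the exchange factor of Ran, overlaps Snhg3 on the same strand and had 3179 and 2282 reads, a ratio of 0.711 (0.673 to 0.750), also below the interval of Snhg3. Zbtb37, which overlaps the start of Gas5 by 428 bases on the other strand, had 25 and 30 reads, and Mcmdc2, which overlaps the end of Snhg6, was listed at 0 in both libraries. Reads in the shared stretches of Rcc1 and Snhg3 cannot be told apart, and the counts of Zbtb37 and Mcmdc2 are small beside those of Gas5 and Snhg6.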

How the data were processed

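Total RNA of 1 control and 1 TSA culture was made into QuantSeq libraries, read from a single end for 75 nt (NextSeq 500) and analysed by the authors with ExDEGA. The submitters' processing notes name Bowtie2, bedtools and mm10. Versions, annotation, strand use and normalization are not given in the sources used here. The deposited values are log2 of a normalized count plus 1, scaled by the authors. The unit was inferred, since the back-transformed values are whole multiples of 1.005 (control) and 0.995 (TSA) for 99.7% and 99.8% of the rows with up to 300 reads, within 0.1 of a read. These multiples were taken as reads. The deposited values carry 3 decimals, which leaves reads uncertain by 0.0347%, or 328 and 348 reads for Rn45s.

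The log2 difference is TSA minus control on the deposited scale. Rows reaching 10 reads in either library were compared, and a row was called past 2-fold by that difference. With 1 library per group no p-value was computed. Intervals are 95% exact (Clopper-Pearson for shares and for ratios of reads, Poisson for reads, conditional for ratios within a library). A floor of 3 reads equals 0.277 CPM in the control and 0.288 CPM in the TSA library. No test between the conditions was run on the recovered reads, because it needs replicates. The intervals compare the reads of the 2 libraries and cover counting error only.

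The 10 transcripts and the gene lists were chosen with earlier results of these data known. Named are the 10 transcripts, up to 4 rows with most reads of each list, rows of a list with a mean of at least 100 past 2-fold, neighbours of the transcripts, and the row next to Rn45s. Snhg11 and Snhg20 were named after their values were seen. Some rows that this rule covers are not reported here. Of a list of 6 host transcripts of microRNAs, none had a row of that symbol, and they are not analysed here. Sequences and positions came from GENCODE M21 and RefSeq on GRCm38. The steps were tested on simulated data. The computations used scipy 1.17.1, numpy 2.4.6, matplotlib 3.10.9 and pandas 2.3.3 in Python 3.11.15. Alternatives were tried for the scaling, the pseudocount, the filter, the threshold and the total behind a share.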

Additional observations from a re-analysis of the deposited data

How the results depend on the processing

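No paired analysis was possible because each condition had 1 library, and no library could be left out. Of the results that answer a comparison, 130 values under the alternatives moved by less than a set margin and 13 by more. Of the differences and shares of the single transcripts, 51 moved by less and 27 by more. Leaving Rn45s out of the total moved each share of the other transcripts by more than the margin. The margin was the counting error of a share, of the difference of a single transcript or of the row nearest a median. It was 1.5 times for counts of rows, and a set log2 distance for the alternatives added later. For the difference of Neat1 it was staying past 2-fold. No transcript of the 10 passed 2-fold when the whole interval had to lie beyond it (0, against 1 for Neat1). Scaling by library totals, and by totals without Rn45s, raised the median of all tested rows by 0.07 and 0.08 and gave medians of -0.059 and -0.045 for the protein-coding snoRNA hosts, 0.035 and 0.049 for the list of further long noncoding RNAs, and -0.23 and -0.22 for the speckle proteins. Requiring a mean of at least 50 gave -0.21 for that list and -0.53 for the Scarna rows, from fewer rows. Sparse lists changed sign with the filter even within that margin, as the other structural RNAs did, from 0.15 to -0.14 with at least 10 reads in both libraries and -0.57 with a mean of at least 50, and the Scarna rows, from 0.13 to -0.31 with at least 10 reads in both. The median of the further long noncoding RNAs was 0.007 with upper-quartile scaling. Without Rn45s in the total, the 7 hosts held 0.145% and 0.148% of the control and TSA reads, and with Gas5 left out of the hosts, they held 0.0837% and 0.0805% of all reads, Rn45s included. The log2 difference of Rn45s was 0.14 by totals and 0.16 by totals without its own reads. By the same 2 scalings that of Malat1 was 0.11 and 0.12, against 0.04 as deposited. That of Gas5 was 0.14 and 0.15, against 0.07 as deposited. Added after the data were seen, the median of the transcripts without Neat1 was -0.007, against 0.0085 with it and 0.093 by totals without Rn45s, and the median of snoRNA minus host was -0.39 over snoRNA rows with at least 50 reads. Differences of some percent in the hosts are at the limit of this depth.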
